A study of Mus musculus with 8 samples.

Results

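The genes described here were 35 targets and regulators of the sterol regulatory element-binding proteins (SREBPs), chosen by gene symbol out of 55276 symbols in the tables, and all 35 were found and tested in every comparison. They were split into a sterol arm of 23 genes and a fatty-acid arm of 12 genes. RNA was sequenced from fibro-adipogenic progenitors (FAPs), the mesenchymal progenitors of skeletal muscle, that were sorted by GFP from the tibialis anterior muscle of mice aged 4 to 6 months after a freeze-pierce injury. Control mice were Osr1 flox/+ CAGG Cre+ and mutant mice, termed Osr1cKO, were Osr1 flox/flox CAGG Cre+, and all of them received tamoxifen on the day of injury and on the days after it. Each genotype had 2 libraries at 3 days post injury (3 dpi) and 2 at 7 dpi, 8 in all, from 1 sample each at 3 dpi and from a pool of 4 samples each at 7 dpi.

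The control FAPs were thus heterozygous, carried Cre, had been exposed to tamoxifen and expressed GFP from a recombined Osr1 allele, as the mutant cells did. The CAGG promoter drives the inducible Cre in all tissues, so recombination was not restricted to FAPs. Osr1 itself, a zinc finger transcription factor, stood at 105 and 91.0 TPM in control and 70.7 and 71.9 in Osr1cKO libraries at 3 dpi, and at 67.6 and 71.6 against 64.4 and 60.8 at 7 dpi. TPM values scale each gene's fragments by its exon length and by the library total, so levels of different genes can be set side by side. A gene-level value sums exons that the recombined allele may retain, so it checks the labels only in part. From the same RNA data the study reported efficient recombination, with strongly reduced reads of the floxed exon and of the exon after it. The libraries held between 36516513 and 51096350 fragments. The summed level of 8 FAP markers lay between 26750 and 54380 TPM. The summed levels of 8 adipocyte markers (1.46 to 5.05 TPM) and of 7 Schwann cell markers (3.45 to 17.1 TPM) were low, with Lep at 0 in all libraries and Sox10 at or below 0.0341 TPM. Replicate 1 of the control group at 7 dpi stood apart for some markers: its 5 muscle stem cell markers summed to 27.7 TPM against 11.7 in replicate 2, and Cd3e, a T cell gene, was at 4.27 against 0.0666 TPM. In bulk RNA, fewer cells of a type and less RNA per cell cannot be told apart.

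SREBPs are made as membrane proteins of the endoplasmic reticulum, where the escort protein Scap is retained by Insig proteins as long as sterols are plentiful. When sterols fall, Scap carries the precursor to the Golgi apparatus, proteases release its amino-terminal part, and this part enters the nucleus and activates genes of cholesterol and fatty-acid synthesis together with the factors NF-Y and Sp1. SREBP2, encoded by Srebf2, acts mainly on the sterol arm, and the SREBP1c form of Srebf1 mainly on the fatty-acid arm.

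At 7 dpi, 18 of the 23 sterol genes were higher in Osr1cKO than in control FAPs at an unadjusted p under 0.05, by up to 2.22-fold for Cyp51, while 3 of the 12 fatty-acid genes were and 5.09% of all genes tested. None of the 35 was lower, against 6.04% of all genes. No gene of either arm passed the adjusted threshold of 0.1 that applies at this day. At 3 dpi no gene of either arm passed the test. Between 3 and 7 dpi, 21 sterol genes fell in control FAPs, by a median of 1.21 on the log2 scale over the arm, and 18 fell in Osr1cKO FAPs, by a median of 0.52, where 22.2% and 23.8% of all genes tested fell. The fatty-acid arm did not share one direction: Fads1, Fasn and Fads2 fell with time in both genotypes, Lpin1 rose in both, and Srebf1 fell in both with no genotype difference that passed the test at either day.

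Promoter windows, from 250 before to 50 after a RefSeq start site (GRCm38.p6, the assembly of mm10), were found for 28 of the 35 genes, 19 of the sterol and 9 of the fatty-acid arm. Stard4, Fdps, Fdft1, Sqle, Scd1, Scd2 and Fads1 had none in the table. The windows were searched on both strands for the NF-Y box CCAAT, the GC box GGGCGG bound by Sp1, the E-box CACGTG, and the letters TCACCCCAC of the sterol response element, also as TCACNCCAC. The NF-Y box was found in 17 of the 19 sterol genes, or 68.0% of their windows, against 37.4% of all 32851 windows in the table. GC boxes were found in 18 of these 19 genes (84.0% of windows against 35.7% of all), and the E-box in 5 (24.0% against 7.15%). In the fatty-acid arm 54.5% of windows held the NF-Y box, 45.5% a GC box and 9.09% the E-box. The TCACCCCAC letters were in the window of Hmgcs1 and of no other member (0.551% of all windows), and so was the TCACNCCAC form (1.24%). Every match to the first form is also a match to the second. The windows of all genes were not restricted to genes expressed in FAPs, so their shares are no matched comparison for the members.

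Windows are printed for 6 genes that the results turn on: the regulators Srebf2 and Insig1, the sterol enzymes Hmgcs1, Cyp51 and Msmo1, and, from the other arm, Fasn. They run 5′ to 3′ along the gene, and capitals mark CCAAT (or ATTGG, its reverse complement), CACGTG and TCACCCCAC. The start site lies 50 bases before the end, so that the NF-Y box of Cyp51 begins at -29, those of Msmo1 at -160, -96 and -55, and the sterol response element letters of Hmgcs1 at -137. A match is a description of the letters and not a shown binding site.
Srebf2, chr15:82147019-82147318, plus strand: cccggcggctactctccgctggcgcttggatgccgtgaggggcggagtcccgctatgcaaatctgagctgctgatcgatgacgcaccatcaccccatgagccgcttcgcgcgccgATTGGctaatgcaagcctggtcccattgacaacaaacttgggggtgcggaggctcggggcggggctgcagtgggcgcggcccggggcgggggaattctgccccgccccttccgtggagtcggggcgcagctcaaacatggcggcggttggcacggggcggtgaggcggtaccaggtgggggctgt
Insig1, chr5:28071162-28071461, plus strand: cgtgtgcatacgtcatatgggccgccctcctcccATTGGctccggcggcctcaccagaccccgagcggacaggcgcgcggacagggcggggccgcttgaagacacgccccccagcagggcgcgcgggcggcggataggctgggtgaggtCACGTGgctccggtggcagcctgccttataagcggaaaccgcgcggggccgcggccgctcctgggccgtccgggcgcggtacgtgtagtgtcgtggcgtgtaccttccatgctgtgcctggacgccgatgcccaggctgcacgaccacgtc
Hmgcs1, chr13:119690101-119690400, plus strand: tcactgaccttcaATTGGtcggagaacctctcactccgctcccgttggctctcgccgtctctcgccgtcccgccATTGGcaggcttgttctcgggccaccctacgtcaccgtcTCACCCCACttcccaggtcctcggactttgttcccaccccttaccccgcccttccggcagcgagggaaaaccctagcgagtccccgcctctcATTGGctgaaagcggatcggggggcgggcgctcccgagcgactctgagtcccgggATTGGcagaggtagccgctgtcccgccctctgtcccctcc
Cyp51, chr5:4104648-4104947, minus strand: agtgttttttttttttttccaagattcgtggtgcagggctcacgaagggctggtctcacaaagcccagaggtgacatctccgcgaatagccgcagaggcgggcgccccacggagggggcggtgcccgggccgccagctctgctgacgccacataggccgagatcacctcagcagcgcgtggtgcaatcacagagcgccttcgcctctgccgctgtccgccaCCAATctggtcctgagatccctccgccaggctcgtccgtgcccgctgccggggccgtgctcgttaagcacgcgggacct
Msmo1, chr8:64733529-64733828, minus strand: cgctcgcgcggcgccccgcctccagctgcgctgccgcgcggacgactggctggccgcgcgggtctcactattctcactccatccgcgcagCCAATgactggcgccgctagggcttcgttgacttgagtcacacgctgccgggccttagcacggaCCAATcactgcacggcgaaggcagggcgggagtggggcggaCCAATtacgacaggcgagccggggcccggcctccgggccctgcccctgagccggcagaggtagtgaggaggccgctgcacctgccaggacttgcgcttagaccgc
Fasn, chr11:120824498-120824797, minus strand: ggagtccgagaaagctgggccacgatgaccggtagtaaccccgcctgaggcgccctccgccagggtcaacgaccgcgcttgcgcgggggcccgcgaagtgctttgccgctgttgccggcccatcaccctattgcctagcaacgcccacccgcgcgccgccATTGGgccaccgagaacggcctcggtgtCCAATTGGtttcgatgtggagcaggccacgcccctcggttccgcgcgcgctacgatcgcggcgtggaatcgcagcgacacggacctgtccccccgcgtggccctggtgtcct

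**Figure D1:**
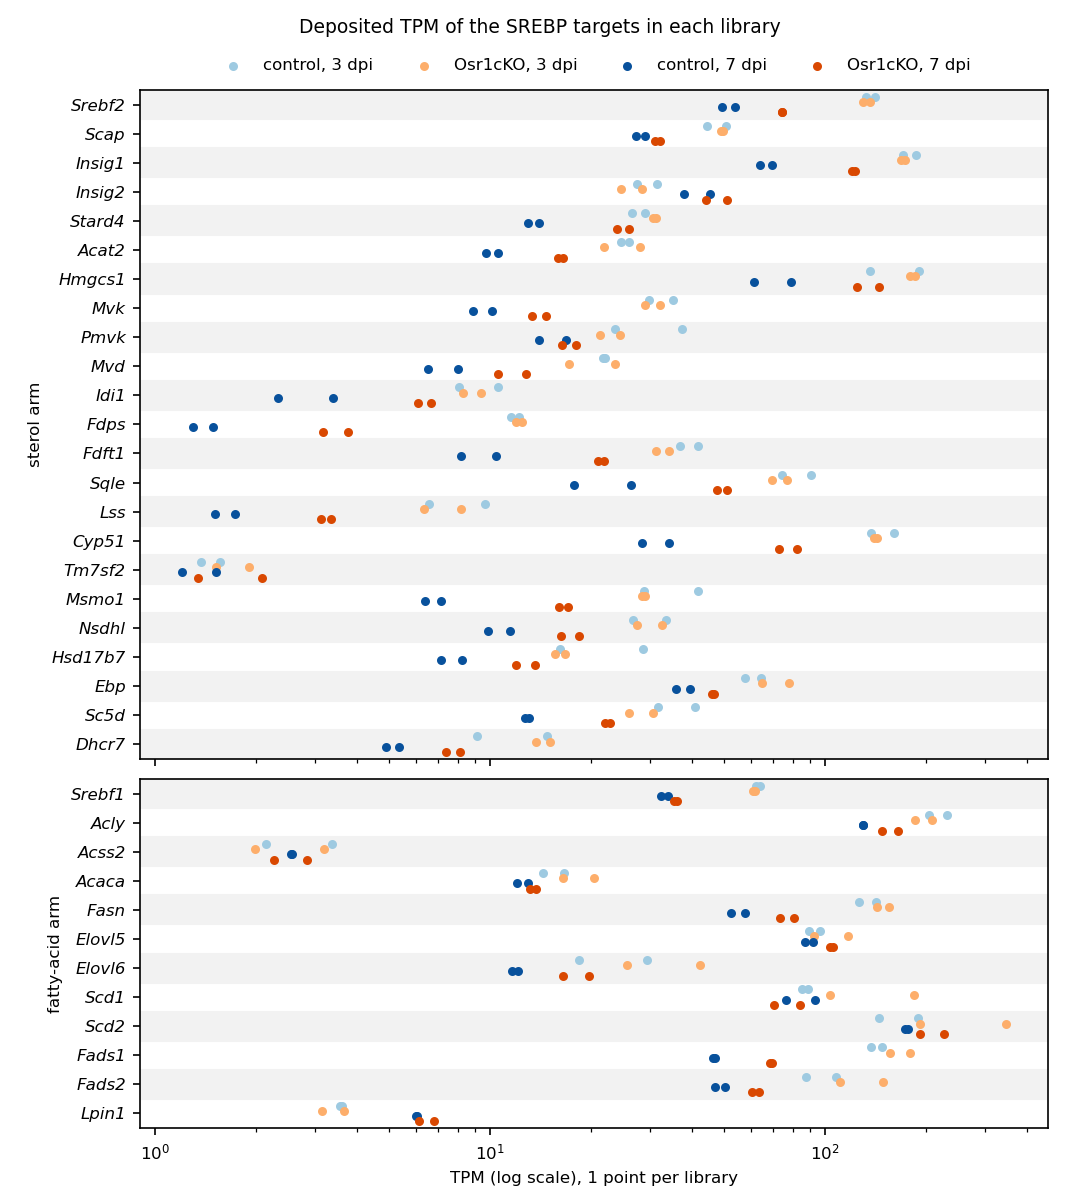
Deposited TPM of the 35 genes (rows) on a log axis, 1 point per library, coloured by genotype and day, with the sterol arm above and the fatty-acid arm below. For most sterol genes the control libraries at 7 dpi are the lowest of the 8, as for Cyp51 at 34.1 and 28.3 TPM, and the Osr1cKO libraries at 7 dpi lie between them and the 3 dpi libraries.

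At 3 dpi the comparison asked whether loss of Osr1 changed the arms early in regeneration. No member passed the rule for this day, a fold change over 1.2 at an unadjusted p under 0.05, whereas 2.21% of the 15699 genes tested passed it as higher and 4.07% as lower in Osr1cKO. None passed an adjusted p under 0.1, nor did any other gene. The median log2 difference was -0.08 in the sterol arm and 0.18 in the fatty-acid arm, against -0.01 over all genes tested, where differences are of log2(scaled TPM + 1), Osr1cKO minus control. In the sterol arm the libraries of the genotypes did not overlap for 2 genes with Osr1cKO higher and 3 with it lower, and in the fatty-acid arm for 6 and 3, against 16.9% and 19.4% of all genes tested. Insig1, which retains Scap in the endoplasmic reticulum, stood at 186 and 171 TPM in control against 173 and 168 TPM in Osr1cKO FAPs, and the groups overlapped, with a log2 difference of -0.08 ± 0.12 (SE, adjusted p = 0.933). Cyp51, the lanosterol demethylase, stood at 160.4 and 137 TPM in control against 143 and 139.8 TPM in Osr1cKO FAPs, and the Osr1cKO values lay inside the range of the controls.

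The desaturases Scd1 and Scd2 had the largest differences at 3 dpi, with 1 Osr1cKO library far above the other. Scd1, a stearoyl-CoA desaturase that makes monounsaturated fatty acids, stood at 88.9 and 85.4 TPM in control against 104 and 185 TPM in Osr1cKO FAPs, a log2 difference of 0.64 ± 0.27 (SE, adjusted p = 0.807). Scd2, its paralog, stood at 145 and 189 TPM in control against 191 and 347 TPM in Osr1cKO FAPs, a log2 difference of 0.62 ± 0.30 (SE, adjusted p = 0.833). Replicate 2 was thus far above replicate 1 for both in the Osr1cKO group, while replicate 1 lay nearer to the controls. Fads2, a desaturase of polyunsaturated fatty acids, stood at 87.5 and 108 TPM in control against 110.5 and 149 TPM in Osr1cKO FAPs, a log2 difference of 0.38 ± 0.19 (SE, adjusted p = 0.833). Without replicate 1 of the Osr1cKO group 3 fatty-acid genes passed as higher. Without replicate 2 of the control group 4 sterol genes passed as lower and 1 as higher, and without replicate 1 of the control group 1 passed as higher. In the sterol arm Sc5d, a sterol desaturase, had the smallest p. It stood at 40.8 and 31.7 TPM in control against 26.0 and 30.6 TPM in Osr1cKO FAPs, a log2 difference of -0.36 ± 0.18 (SE, adjusted p = 0.833).

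**Figure D2:**
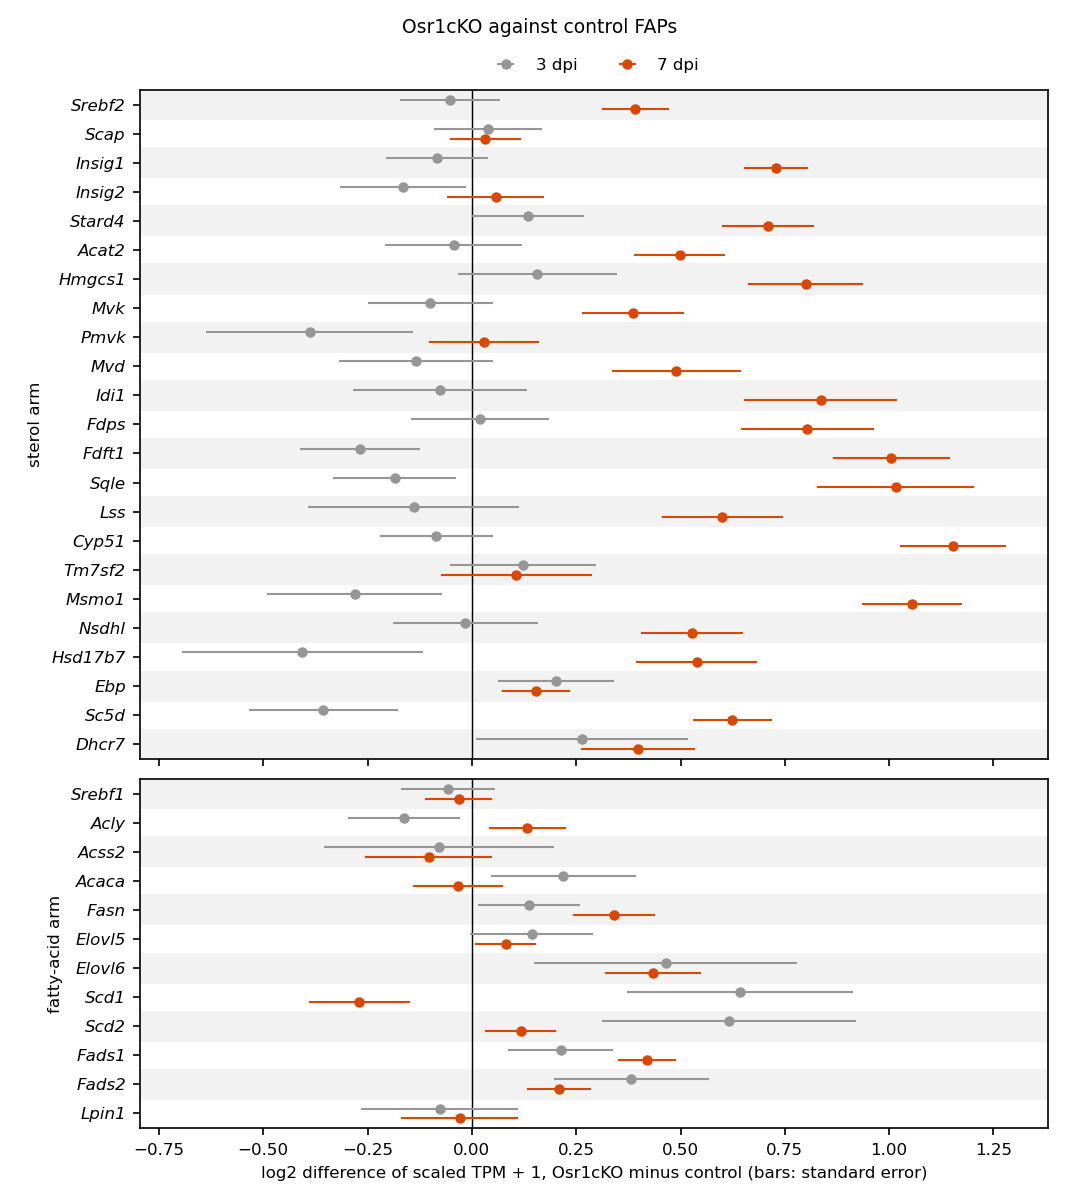
Difference of log2(scaled TPM + 1) between Osr1cKO and control FAPs (horizontal axis, bars are standard errors of the limma fit) for each of the 35 genes at 3 dpi (grey) and 7 dpi (orange), from 2 libraries per group. At 7 dpi all 23 sterol genes lie to the right of 0, from 0.03 for Pmvk to 1.15 for Cyp51, while the fatty-acid genes lie between -0.27 for Scd1 and 0.44 for Elovl6.

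At 7 dpi the same comparison gave higher values in Osr1cKO FAPs for all 23 sterol genes, with a median log2 difference of 0.54, and a median of 0.10 in the fatty-acid arm, against 0.00 over the 16578 genes tested. By the rule of this day, an adjusted p under 0.1 with a fold change over 1.2, no member passed, and 0.0181% of all genes passed as higher and 0.0483% as lower. The smallest adjusted p among the members was 0.127, for Insig1 (limma, Benjamini-Hochberg). At an unadjusted p under 0.05 with the same fold, 18 sterol and 3 fatty-acid genes were higher and none lower, where 5.09% of all genes passed as higher and 6.04% as lower. The genotypes did not overlap, with Osr1cKO higher, for 19 sterol and 7 fatty-acid genes, against 22.5% of all genes. On the scaled values Scd1 was the only member whose groups did not overlap with Osr1cKO lower, against 23.3% of all genes. With limma-voom on the recovered fragments, 9 sterol genes and Fads1 passed the adjusted threshold as higher, against 0.501% of 16357 genes, and no member as lower, against 0.813%. Without replicate 1 or replicate 2 of the control group at 7 dpi, 9 and 7 sterol genes passed it, and without replicate 1 or replicate 2 of the Osr1cKO group none did. Without further scaling of TPM the median of all genes moved up by 0.11, and the share of higher calls among all genes with an unadjusted p under 0.05 and that fold from 45.7% to 83.0%. The sterol median then was 0.66 and the fatty-acid median 0.24.

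Among the regulators of the sterol arm, Insig1 and Srebf2 passed the unadjusted threshold, and Scap and Insig2 did not. Insig1 stood at 69.3 and 63.7 TPM in control against 121 and 123 TPM in Osr1cKO FAPs at 7 dpi, a log2 difference of 0.73 ± 0.08 (SE, adjusted p = 0.127). The Osr1cKO values were near each other and well above both controls. Srebf2 stood at 53.6 and 49.1 TPM in control against 74.3 and 74.4 TPM in Osr1cKO FAPs, a log2 difference of 0.39 ± 0.08 (SE, adjusted p = 0.248). Stard4, which carries sterols between membranes, stood at 14.0 and 13.0 TPM in control against 26.0 and 23.8 TPM in Osr1cKO FAPs, a log2 difference of 0.71 ± 0.11 (SE, adjusted p = 0.217). For both genes the groups were clearly apart. Scap stood at 27.3 and 28.9 TPM in control against 32.1 and 31.1 TPM in Osr1cKO FAPs, with a log2 difference of 0.03 ± 0.09 (SE, adjusted p = 0.903). Insig2, the second Insig protein, stood at 45.2 and 37.9 TPM in control against 44.0 and 51.0 TPM in Osr1cKO FAPs, with a log2 difference of 0.06 ± 0.12 (SE, adjusted p = 0.873), and its groups overlapped. For Scap the deposited values did not overlap but the scaled ones did.

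In the mevalonate segment, which turns acetyl-CoA into farnesyl diphosphate, 6 of 7 genes passed the unadjusted threshold. Hmgcs1, which makes HMG-CoA and whose window above holds the sterol response element letters, stood at 78.9 and 61.4 TPM in control against 124 and 144 TPM in Osr1cKO FAPs, a log2 difference of 0.80 ± 0.14 (SE, adjusted p = 0.217). Idi1, the isomerase of isopentenyl diphosphate, stood at 2.33 and 3.39 TPM in control against 6.08 and 6.65 TPM in Osr1cKO FAPs, a log2 difference of 0.84 ± 0.18 (SE, adjusted p = 0.261). Fdps, farnesyl diphosphate synthase, stood at 1.30 and 1.49 TPM in control against 3.76 and 3.17 TPM in Osr1cKO FAPs, a log2 difference of 0.80 ± 0.16 (SE, adjusted p = 0.243). All of these were higher in both Osr1cKO libraries than in either control library, and Idi1 and Fdps were low genes whose difference is understated by the added 1 TPM. Acat2, acetyl-CoA acetyltransferase, stood at 10.6 and 9.72 TPM in control against 15.9 and 16.5 TPM in Osr1cKO FAPs, a log2 difference of 0.50 ± 0.11 (SE, adjusted p = 0.261). Mvd, mevalonate diphosphate decarboxylase, stood at 8.03 and 6.53 TPM in control against 10.6 and 12.8 TPM in Osr1cKO FAPs, a log2 difference of 0.49 ± 0.15 (SE, adjusted p = 0.332). Mvk, mevalonate kinase, stood at 10.1 and 8.91 TPM in control against 13.3 and 14.7 TPM in Osr1cKO FAPs, a log2 difference of 0.39 ± 0.12 (SE, adjusted p = 0.332). Mvd and Mvk no longer passed without replicate 2 of the control group (log2 differences 0.35 and 0.30) or of the Osr1cKO group (0.39 and 0.35). Pmvk, phosphomevalonate kinase, was the exception, at 14.0 and 16.8 TPM in control against 18.1 and 16.4 TPM in Osr1cKO FAPs, with overlapping groups.

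All 3 genes of the squalene segment, which joins farnesyl units and closes the ring to lanosterol, passed the unadjusted threshold. Sqle, squalene epoxidase and a rate-controlling step, stood at 26.3 and 17.8 TPM in control against 50.9 and 47.5 TPM in Osr1cKO FAPs, a log2 difference of 1.02 ± 0.19 (SE, adjusted p = 0.225). Fdft1, squalene synthase, stood at 10.4 and 8.17 TPM in control against 21.0 and 21.9 TPM in Osr1cKO FAPs, a log2 difference of 1.0 ± 0.14 (SE, adjusted p = 0.197). Lss, lanosterol synthase, stood at 1.73 and 1.51 TPM in control against 3.12 and 3.36 TPM in Osr1cKO FAPs, a log2 difference of 0.60 ± 0.15 (SE, adjusted p = 0.278). Sqle and Fdft1 were thus 2.02-fold and 2.01-fold higher, and Lss was at 1.52-fold. Of the exon bases of Fdft1, 18.3% are shared with Ctsb on the opposite strand, as are 12.1% of those of Hmgcs1 and 13.2% of those of Scap with other genes, and whether strand was used in counting is not given in the sources used here. Of Fdps, 26.7% of the exon bases are shared with other genes on its own strand, as are 12.1% of those of Tm7sf2 with Vps51. The levels of Fdps and Tm7sf2 are uncertain to that extent.

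Of the 8 genes that convert lanosterol to cholesterol, 6 passed the unadjusted threshold. Cyp51, the first of them, stood at 34.1 and 28.3 TPM in control against 82.1 and 72.7 TPM in Osr1cKO FAPs, a log2 difference of 1.15 ± 0.13 (SE, adjusted p = 0.131), the largest of all members. Msmo1, a methylsterol oxidase, stood at 7.16 and 6.37 TPM in control against 16.1 and 17.0 TPM in Osr1cKO FAPs, a log2 difference of 1.05 ± 0.12 (SE, adjusted p = 0.145). Both Osr1cKO libraries were over the controls by more than the spread within either group for both genes. Sc5d stood at 13.0 and 12.7 TPM in control against 22.0 and 22.8 TPM in Osr1cKO FAPs, a log2 difference of 0.62 ± 0.09 (SE, adjusted p = 0.217). Hsd17b7, a 3-ketosteroid reductase, stood at 8.25 and 7.15 TPM in control against 13.6 and 11.9 TPM in Osr1cKO FAPs, a log2 difference of 0.54 ± 0.14 (SE, adjusted p = 0.298). Nsdhl, a sterol dehydrogenase that acts after Msmo1, stood at 9.85 and 11.5 TPM in control against 16.3 and 18.5 TPM in Osr1cKO FAPs, a log2 difference of 0.53 ± 0.12 (SE, adjusted p = 0.267). Dhcr7, which makes cholesterol from 7-dehydrocholesterol, stood at 5.36 and 4.88 TPM in control against 7.38 and 8.12 TPM in Osr1cKO FAPs, a log2 difference of 0.40 ± 0.14 (SE, adjusted p = 0.348), and no longer passed when any 1 of the 4 libraries was left out (log2 difference 0.34 to 0.46). Hsd17b7 no longer passed without replicate 1 of the Osr1cKO group (0.42). The remaining pair, Ebp and Tm7sf2, had log2 differences of 0.15 ± 0.08 (SE, adjusted p = 0.494) and 0.11 ± 0.18 (SE, adjusted p = 0.846), and Tm7sf2, a sterol reductase, did not exceed 2.08 TPM in any of the 8 libraries.

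In the fatty-acid arm at 7 dpi, differences were smaller. Of its 5 negative values, those of Srebf1, Acaca and Lpin1 were all near -0.03 and became positive without further scaling, at 0.10, 0.093 and 0.089. Fads1, a desaturase of polyunsaturated fatty acids, stood at 46.2 and 46.9 TPM in control against 68.5 and 69.1 TPM in Osr1cKO FAPs, a log2 difference of 0.42 ± 0.07 (SE, adjusted p = 0.217), and its replicates were almost equal within each genotype. Fasn, fatty acid synthase, stood at 57.6 and 52.5 TPM in control against 80.6 and 73.3 TPM in Osr1cKO FAPs, a log2 difference of 0.34 ± 0.10 (SE, adjusted p = 0.310). Elovl6, an elongase of saturated fatty acids, stood at 12.1 and 11.6 TPM in control against 16.5 and 19.7 TPM in Osr1cKO FAPs, a log2 difference of 0.44 ± 0.12 (SE, adjusted p = 0.297). These were the 3 that passed the unadjusted threshold. Fasn no longer passed without replicate 2 of the control group (log2 difference 0.27) or replicate 1 of the Osr1cKO group (0.25), and Elovl6 without replicate 2 of the Osr1cKO group (0.34). Scd1 stood at 76.3 and 93.3 TPM in control against 70.3 and 83.8 TPM in Osr1cKO FAPs, a log2 difference of -0.27 ± 0.12 (SE, adjusted p = 0.434), and its groups overlapped before scaling. Srebf1 stood at 32.5 and 33.9 TPM in control against 36.0 and 35.3 TPM in Osr1cKO FAPs, with a log2 difference of -0.03 ± 0.08 (SE, adjusted p = 0.899). Acaca and Acly, which supply malonyl-CoA and acetyl-CoA, had log2 differences of -0.03 ± 0.11 (SE, adjusted p = 0.917) and 0.13 ± 0.09 (SE, adjusted p = 0.592). The others, Fads2, Scd2, Elovl5, Acss2 and Lpin1, lay between -0.10 and 0.21.

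Comparing 7 with 3 dpi within a genotype asked how the arms changed as regeneration went on. Day is confounded with the number of samples per library, so the effects of time and of pooling cannot be told apart. The methods also name a pair of sequencing instruments with different read lengths, which day ran on which was not settled, and the part of that in the differences was not tested. Both comparisons rest on libraries already used for the genotype comparisons. In control FAPs 21 sterol genes fell and 1 rose, and 6 fatty-acid genes fell and 1 rose, at an adjusted p under 0.1 with a fold change over 1.2, where 22.2% of the 16525 genes tested fell and 28.1% rose. In Osr1cKO FAPs 18 sterol genes fell and 1 rose, and 7 fatty-acid genes fell and 1 rose, where 23.8% of 16279 genes fell and 32.6% rose. The median log2 difference was -1.21 for the sterol and -0.32 for the fatty-acid arm in control FAPs, and -0.52 and -0.53 in Osr1cKO FAPs, against 0.09 and 0.10 over all genes. The calls in control FAPs depended on the 7 dpi libraries: without replicate 1 of them 10 sterol genes and 2 fatty-acid genes fell, and without replicate 2 no member was called as lower, while the sterol median stayed between -1.30 and -1.11 whichever library was left out. In Osr1cKO FAPs 4 fatty-acid genes fell without replicate 1 of 7 dpi, as without its replicate 2, and without replicate 2 of 3 dpi the fatty-acid median was -0.31. Idi1 was no longer called there without any 1 of the 4 libraries, Pmvk and Acaca without either 7 dpi library or replicate 2 of 3 dpi, Acat2, Elovl6 and Scd1 without either 7 dpi library, and Hmgcs1 and Mvd without replicate 1 of 7 dpi. Without further scaling the median of all genes in control FAPs moved down by 0.15, and the share of higher calls from 55.9% to 41.5%.

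Markers of other cells also moved between the days, counted by an adjusted p under 0.1 with a fold change over 1.2. By that rule 28.1% of all genes rose and 22.2% fell in control FAPs, and 32.6% rose and 23.8% fell in Osr1cKO FAPs. Of the myofiber markers all 6 tested rose in control FAPs, with summed levels of 8.34 to 12.1 TPM at 3 dpi and 54.8 to 57.3 at 7 dpi, and all 5 tested in Osr1cKO FAPs, with 6.52 to 9.004 and then 35.9 to 38.8 TPM. Of 8 macrophage markers 4 rose in control FAPs (26.4 to 28.1 and then 54.5 to 55.7 TPM) and 7 in Osr1cKO FAPs (30.4 to 31.5 and then 73.8 to 89.9 TPM). Of the endothelial markers 3 of 5 tested rose in control FAPs (21.4 to 44.4 and then 47.2 to 61.7 TPM) and 6 of 6 in Osr1cKO FAPs (17.2 to 17.99 and then 48.1 to 72.0 TPM). Both erythroid markers tested rose in each genotype, with sums from at most 1.43 TPM at 3 dpi to between 11.0 and 49.6 TPM at 7 dpi. Of the muscle stem cell markers 1 of 3 tested rose in control and 4 of 5 in Osr1cKO FAPs, and 1 of 4 Schwann cell markers rose in each. The Schwann cell counts, and the muscle stem cell count in control FAPs, were near the shares of all genes that rose. The 1 tested lymphoid marker and the 1 tested adipocyte marker rose in Osr1cKO FAPs, and none of the 1 lymphoid and 2 adipocyte markers tested in control FAPs passed. Of the 8 FAP markers 3 rose and 2 fell in control FAPs and 3 rose in Osr1cKO FAPs, and the counts that rose were near the shares of all genes. Markers near 0 at 3 dpi could pass the filter on fragments only through the 7 dpi libraries, which favours a rise. This holds for some myofiber, endothelial and muscle stem cell markers, and for the erythroid ones. In the genotype comparisons 3 myofiber markers were tested at 3 dpi and 6 at 7 dpi, and 2 and 5 muscle stem cell markers. The counts for these lists are thus no fair test of a rise. The summed levels cover all listed markers, tested or not. The part of other cells in the differences between days was not tested.

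**Figure D3:**
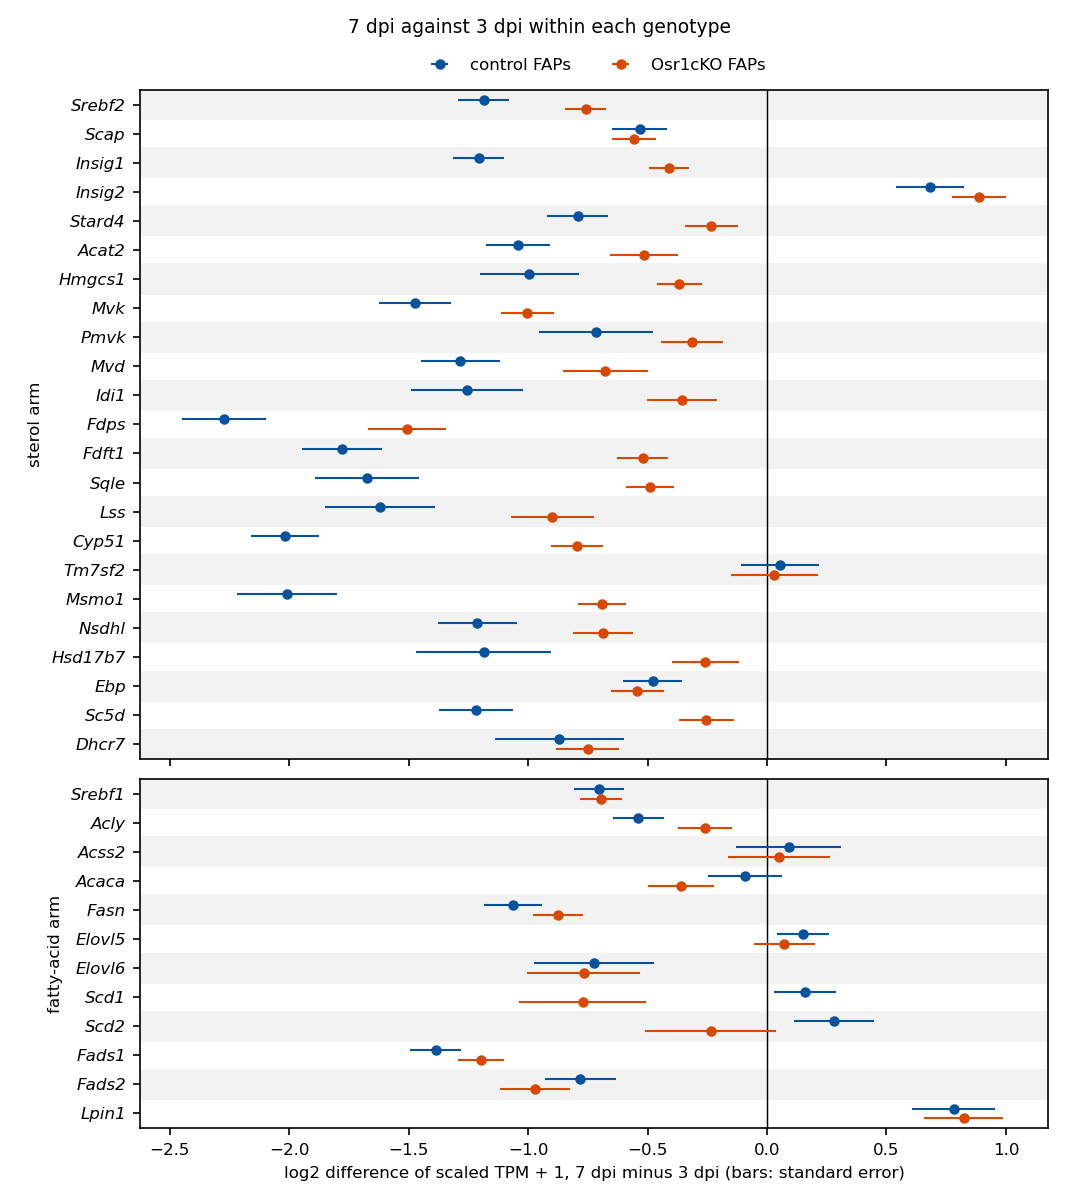
Difference of log2(scaled TPM + 1) between 7 and 3 dpi (horizontal axis, bars are standard errors of the limma fit) in control FAPs (blue) and Osr1cKO FAPs (orange) for each of the 35 genes, from 2 libraries per group. In both genotypes most sterol genes lie to the left of 0, farther in control FAPs, down to -2.27 for Fdps, while Insig2 and Lpin1 lie to the right in both.

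Among the regulators, Srebf2 fell by 1.19 ± 0.11 (SE, adjusted p = 0.00457) in control and by 0.76 ± 0.09 (SE, adjusted p = 0.00301) in Osr1cKO FAPs, from 140.3 and 132 TPM and 136 and 129.6 TPM at 3 dpi, on the log2 scale used throughout. Insig1 fell by 1.21 ± 0.11 (SE, adjusted p = 0.00456) in control and by 0.41 ± 0.08 (SE, adjusted p = 0.0139) in Osr1cKO FAPs. Scap fell by 0.53 ± 0.12 (SE, adjusted p = 0.0237) and 0.56 ± 0.09 (SE, adjusted p = 0.00766). Insig2 was the one regulator that rose: it stood at 31.4 and 27.5 TPM in control libraries at 3 dpi and 45.2 and 37.9 at 7 dpi, a log2 difference of 0.68 ± 0.14 (SE, adjusted p = 0.0216), and at 24.6 and 28.4 and then 44.0 and 51.0 in Osr1cKO libraries, a log2 difference of 0.89 ± 0.11 (SE, adjusted p = 0.00389). Stard4 fell by 0.79 ± 0.13 (SE, adjusted p = 0.0120) in control FAPs and had a log2 difference of -0.23 ± 0.11 (SE, adjusted p = 0.136) in Osr1cKO FAPs.

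In the mevalonate segment all 7 genes fell in both genotypes. Fdps fell most of all members in control FAPs, from 12.2 and 11.5 to 1.30 and 1.49 TPM, by 2.27 ± 0.18 (SE, adjusted p = 0.00436), and by 1.51 ± 0.16 (SE, adjusted p = 0.00269) in Osr1cKO FAPs. Mvk fell by 1.47 ± 0.15 (SE, adjusted p = 0.00521) in control and 1.0 ± 0.11 (SE, adjusted p = 0.00279) in Osr1cKO FAPs. Mvd fell by 1.28 ± 0.16 (SE, adjusted p = 0.00749) and 0.68 ± 0.18 (SE, adjusted p = 0.0300), respectively. In each of the 7 genes the estimated fall was smaller in Osr1cKO than in control FAPs. Idi1 fell by 1.26 ± 0.24 (SE, adjusted p = 0.0167) in control and 0.36 ± 0.15 (SE, adjusted p = 0.0985) in Osr1cKO FAPs. Acat2 fell by 1.04 ± 0.13 (SE, adjusted p = 0.00760) and 0.52 ± 0.14 (SE, adjusted p = 0.0337). Hmgcs1 fell by 0.99 ± 0.21 (SE, adjusted p = 0.0214) and 0.37 ± 0.09 (SE, adjusted p = 0.0271). Pmvk fell by 0.72 ± 0.24 (SE, adjusted p = 0.0717) and 0.31 ± 0.13 (SE, adjusted p = 0.0988), and its value in 1 control library at 3 dpi, 37.5 TPM, was far above the other, 23.6 TPM. Without that library, replicate 1, its log2 difference in control FAPs was -0.43.

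In the squalene segment Fdft1 fell by 1.78 ± 0.17 (SE, adjusted p = 0.00473) in control and by 0.52 ± 0.11 (SE, adjusted p = 0.0137) in Osr1cKO FAPs. Sqle fell by 1.68 ± 0.22 (SE, adjusted p = 0.00769) and 0.49 ± 0.10 (SE, adjusted p = 0.0150), from 90.8 and 74.2 TPM in the control and 69.3 and 76.8 TPM in the Osr1cKO libraries at 3 dpi. Lss fell by 1.62 ± 0.23 (SE, adjusted p = 0.00920) and 0.90 ± 0.17 (SE, adjusted p = 0.0123). After lanosterol, Cyp51 fell from 160.4 and 137 to 34.1 and 28.3 TPM in control FAPs, by 2.02 ± 0.14 (SE, adjusted p = 0.00426), and from 143 and 139.8 to 82.1 and 72.7 TPM in Osr1cKO FAPs, by 0.79 ± 0.11 (SE, adjusted p = 0.00459). For Cyp51 the days did not overlap in either genotype. Msmo1 fell by 2.01 ± 0.21 (SE, adjusted p = 0.00527) and 0.69 ± 0.10 (SE, adjusted p = 0.00540). Nsdhl fell by 1.21 ± 0.16 (SE, adjusted p = 0.00839) and 0.69 ± 0.12 (SE, adjusted p = 0.0101). Dhcr7 fell by 0.87 ± 0.27 (SE, adjusted p = 0.0592) and 0.75 ± 0.13 (SE, adjusted p = 0.00916), and Ebp, a sterol isomerase, by 0.48 ± 0.12 (SE, adjusted p = 0.0369) and 0.54 ± 0.11 (SE, adjusted p = 0.0140). Without replicate 2 of the control group at 3 dpi the log2 difference of Dhcr7 in control FAPs was -0.56. Sc5d and Hsd17b7 passed in control FAPs only, which does not show that the genotypes differ: Sc5d fell there by 1.22 ± 0.16 (SE, adjusted p = 0.00751) against a difference of -0.25 ± 0.11 in Osr1cKO FAPs (adjusted p = 0.123), and Hsd17b7 by 1.19 ± 0.28 (SE, adjusted p = 0.0301) against -0.26 ± 0.14 (adjusted p = 0.183). Tm7sf2 passed in neither genotype.

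In the fatty-acid arm Fads1 fell most, by 1.39 ± 0.11 (SE, adjusted p = 0.00430) in control and 1.2 ± 0.10 (SE, adjusted p = 0.00160) in Osr1cKO FAPs. Fasn fell by 1.06 ± 0.12 (SE, adjusted p = 0.00628) and 0.87 ± 0.10 (SE, adjusted p = 0.00326), and Fads2 by 0.78 ± 0.15 (SE, adjusted p = 0.0168) and 0.97 ± 0.15 (SE, adjusted p = 0.00607). Srebf1 fell from 62.2 and 63.9 to 32.5 and 33.9 TPM in control FAPs, by 0.70 ± 0.10 (SE, adjusted p = 0.00993), and by 0.69 ± 0.09 (SE, adjusted p = 0.00384) in Osr1cKO FAPs. Elovl6 fell by 0.72 ± 0.25 (SE, adjusted p = 0.0783) and 0.77 ± 0.24 (SE, adjusted p = 0.0464). Without replicate 2 of 3 dpi its log2 difference was -0.41 in control and -0.44 in Osr1cKO FAPs, and without either 7 dpi library it was no longer called in either genotype (adjusted p = 0.284 and 0.343 in control, 0.19 and 0.129 in Osr1cKO FAPs, without replicate 1 and replicate 2). Lpin1, a phosphatidate phosphatase of glycerolipid synthesis, went the other way. It stood at 3.61 and 3.57 TPM in control libraries at 3 dpi and at 6.0 and 6.03 at 7 dpi, and rose by 0.78 ± 0.17 (SE, adjusted p = 0.0249) in control and 0.82 ± 0.17 (SE, adjusted p = 0.0136) in Osr1cKO FAPs. Acly passed in control FAPs, where it fell by 0.54 ± 0.11 (SE, adjusted p = 0.0195), and Acaca and Scd1 in Osr1cKO FAPs, where they fell by 0.36 ± 0.14 (SE, adjusted p = 0.0822) and 0.77 ± 0.27 (SE, adjusted p = 0.0631). The fall of Scd1 was from 104 and 185 TPM, of which the higher value is the library described above, to 70.3 and 83.8 TPM. Without that library the log2 difference was -0.38, without replicate 1 of 3 dpi it was -1.19, and without either 7 dpi library Scd1 was no longer called (adjusted p = 0.232 and 0.157). For Acaca it was -0.24 without replicate 2 of 3 dpi, and not called. Acss2, Elovl5 and Scd2 passed in neither genotype, and the sign of the first pair changed with the scaling.

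Whether the genotype difference itself differed between the days was tested with an interaction term over all 8 libraries, of which a positive value means a higher Osr1cKO to control ratio at 7 than at 3 dpi. None of the 17371 genes tested, members included, had an adjusted p under 0.05. The smallest adjusted p of all was 0.142, and among members it was 0.343 (limma, Benjamini-Hochberg). With a fold over 1.2 at an unadjusted p under 0.05, 17 sterol genes passed with a positive value, against 3.78% of all genes, and 1 fatty-acid gene with a negative value, against 3.09%. The median was 0.62 in the sterol arm and -0.03 in the fatty-acid arm, against 0.01 over all genes. Msmo1 had the largest value, 1.33 ± 0.24 (SE, adjusted p = 0.459), followed by Fdft1 with 1.27 ± 0.20 (SE, adjusted p = 0.343). Cyp51 had 1.23 ± 0.19 (SE, adjusted p = 0.343) and Sqle 1.2 ± 0.26 (SE, adjusted p = 0.557). At 3 dpi these 4 had been slightly lower in Osr1cKO, with log2 differences of -0.28, -0.27, -0.09 and -0.19, none of which passed. Sc5d had 0.97 ± 0.19 (SE, adjusted p = 0.485), Hsd17b7 0.94 ± 0.34 (SE, adjusted p = 0.697) and Idi1 0.91 ± 0.28 (SE, adjusted p = 0.633).

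Among the regulators Insig1 had an interaction of 0.80 ± 0.13 (SE, adjusted p = 0.343) and Srebf2 of 0.44 ± 0.13 (SE, adjusted p = 0.609). The carrier Stard4 had 0.57 ± 0.16 (SE, adjusted p = 0.603). In the mevalonate segment Fdps had 0.79 ± 0.22 (SE, adjusted p = 0.603), Hmgcs1 0.64 ± 0.25 (SE, adjusted p = 0.706), Mvd 0.62 ± 0.25 (SE, adjusted p = 0.706), Acat2 0.54 ± 0.19 (SE, adjusted p = 0.690) and Mvk 0.48 ± 0.18 (SE, adjusted p = 0.706). Lss had 0.74 ± 0.29 (SE, adjusted p = 0.706) and Nsdhl 0.54 ± 0.21 (SE, adjusted p = 0.706). The one fatty-acid gene was Scd1, with -0.92 ± 0.34 (SE, adjusted p = 0.706). Scap, Insig2, Pmvk, Tm7sf2, Ebp and Dhcr7 of the sterol arm did not pass, and were between -0.06 and 0.41. The count of 17 fell to 10 without replicate 1 of the Osr1cKO group at 3 dpi, replicate 2 of the control group at 7 dpi or replicate 1 of the Osr1cKO group at 7 dpi, and to 11 without replicate 2 of the latter. Scd1 did not pass when 1 control library at 3 dpi, replicate 2 of the control group at 7 dpi or 1 Osr1cKO library at 7 dpi was left out, with values of -0.78 to -1.01. Without replicate 2 of the Osr1cKO group at 3 dpi its value was -0.52 and without replicate 1 it was -1.32, both past the threshold. Without replicate 1 of the control group at 3 dpi Hmgcs1 had 0.41 and did not pass and Hsd17b7 had 0.56 and passed, and without replicate 1 of the Osr1cKO group at 3 dpi Mvd had 0.41 and did not pass. Without further scaling the share of positive calls among all genes moved from 55.0% to 80.3%, the sterol median to 0.73 and the fatty-acid median to 0.07.

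Other genes of the pathway were counted in lists at the same 7 dpi genotype comparison, by a fold over 1.2 at an unadjusted p under 0.05. The lists were chosen with earlier results of these data known, so their counts are not independent of the sterol result. Of all genes tested 5.09% passed as higher and 6.04% as lower, and none of the list genes passed the adjusted threshold. Of 7 further genes known to respond to sterols, 3 passed as higher and none as lower, with a median of 0.31. Tmem97, a sterol-binding membrane protein, stood at 64.0 and 43.6 TPM in control against 99.5 and 92.6 TPM in Osr1cKO FAPs, a log2 difference of 0.71 ± 0.19 (SE, adjusted p = 0.294). Pcyt2, an enzyme of phosphatidylethanolamine synthesis, stood at 8.92 and 10.5 TPM in control against 16.5 and 15.4 TPM in Osr1cKO FAPs, a log2 difference of 0.54 ± 0.13 (SE, adjusted p = 0.276). Both were higher in both Osr1cKO libraries. Of 12 genes of the liver X receptors (LXRs), which sense oxysterols, and of sterol storage and export, 5 passed as lower and none as higher, with a median of -0.24, or -0.11 without further scaling. Abcg1, a sterol exporter, stood at 8.36 and 9.37 TPM in control against 4.33 and 3.71 TPM in Osr1cKO FAPs, a log2 difference of -1.09 ± 0.15 (SE, adjusted p = 0.197), and Abca1, another exporter, at 56.7 and 69.2 TPM in control against 42.0 and 47.9 TPM in Osr1cKO FAPs, a log2 difference of -0.61 ± 0.11 (SE, adjusted p = 0.227). None of the 9 genes for SREBP cleavage and Insig turnover passed, with a median of 0.04. Of 10 genes in the non-sterol branches of the mevalonate pathway only Nus1, of dolichol synthesis, passed, as higher, with a log2 difference of 0.41 ± 0.12 (SE, adjusted p = 0.314). Of 18 tested of 21 other lipogenic enzymes, 2 passed as higher, Hsd17b12 and Me1, with log2 differences of 0.48 ± 0.12 (SE, adjusted p = 0.289) and 0.28 ± 0.08 (SE, adjusted p = 0.309), and none of 10 tested of 11 genes of fatty-acid oxidation passed. The counts of the non-sterol, lipogenic, cleavage and oxidation lists were thus near the shares of all genes.

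At 3 dpi, where 2.21% of all genes tested passed as higher and 4.07% as lower, 2 LXR and storage genes passed as lower, and no gene of the further sterol-responsive, cleavage or non-sterol lists passed. Among the lipogenic enzymes Gpam passed as higher, with a log2 difference of 0.50 ± 0.18 (SE, adjusted p = 0.790), and among those of oxidation Cpt1a as lower, with -0.46 ± 0.14 (SE, adjusted p = 0.774). Between the days 22.2% of all genes fell and 28.1% rose in control FAPs, and 23.8% fell and 32.6% rose in Osr1cKO FAPs. Of the 7 further sterol-responsive genes 5 fell in control FAPs and 4 in Osr1cKO FAPs, and 1 rose in each. Of the 18 lipogenic enzymes 10 fell and 2 rose in each genotype. Of the LXR and storage genes 5 rose and 3 fell in control FAPs, and 4 rose and 2 fell in Osr1cKO FAPs. The non-sterol branches had 6 that fell and 1 that rose in each genotype. Of the cleavage genes 2 fell in control FAPs, and 5 fell and 1 rose in Osr1cKO FAPs. Of the oxidation genes 4 fell and 1 rose in each genotype. Unlike the sterol arm, the sum of the LXR and storage genes was not lowest in control FAPs at 7 dpi: it lay between 582 and 616 TPM there, and between 538 and 609.6 in Osr1cKO FAPs, whereas the sterol arm summed to between 440.1 and 488 TPM and between 769 and 790.2.

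**Figure D4:**
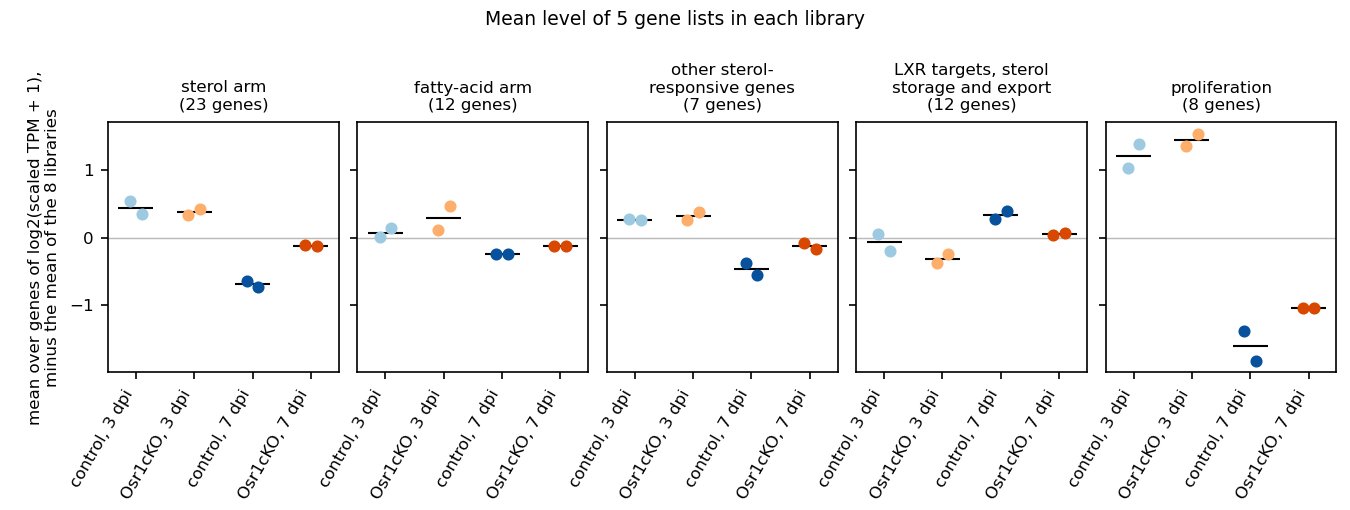
Mean of log2(scaled TPM + 1) over the genes of 5 lists in each library, minus the mean of the 8 libraries (vertical axis), 1 point per library and a line at the mean of each group. The sterol arm is lowest in control FAPs at 7 dpi, at -0.65 and -0.73, and at -0.11 and -0.13 in Osr1cKO FAPs at that day, and the 8 proliferation genes follow the same order of groups at 7 dpi, from -1.38 and -1.83 to -1.04 and -1.05.

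Proliferation genes moved with the sterol arm in some of the comparisons. Their 8 genes all fell between the days in both genotypes, with medians of -2.98 in control and -2.71 in Osr1cKO FAPs, and at 7 dpi 4 of 8 were higher in Osr1cKO past the same unadjusted threshold, which 5.09% of all genes passed as higher and 6.04% as lower, with a median of 0.61. Birc5, a protein of dividing cells, stood at 7.14 and 5.62 TPM in control against 14.5 and 12.2 TPM in Osr1cKO FAPs, a log2 difference of 0.84 ± 0.17 (SE, adjusted p = 0.246). At 3 dpi none of the 8 passed, and their median was 0.24 against -0.08 in the sterol arm. For the interaction none of the 8 passed either, with a median of 0.31 against 0.62. Their part in the result was not tested. Markers of other cells moved too, counted here at 7 dpi by the same threshold and against the same shares of all genes. The summed level of 8 macrophage markers lay between 54.5 and 55.7 TPM in control and between 73.8 and 89.9 TPM in Osr1cKO libraries at 7 dpi, with 2 of 8 higher. Among these was Cd14, at 12.3 and 9.94 TPM in control against 26.8 and 25.5 TPM in Osr1cKO FAPs. The list was uneven: in replicate 2 of Osr1cKO, Lyz2 stood at 36.1, Cd14 at 25.5 and Ptprc at 0.216 TPM. The summed level of 6 myofiber markers lay between 54.8 and 57.3 and between 35.9 and 38.8 TPM, with 3 lower. That of 6 endothelial markers lay between 47.2 and 61.7 and between 48.1 and 72.0 TPM, with 2 higher. Of 7 Schwann cell markers 4 were tested and 1 was higher, with sums between 6.93 and 8.31 and between 8.97 and 17.1 TPM. Of 6 lymphoid markers only Cd79a, of B cells, was tested, and it was lower, with sums over the 6 between 11.5 and 14.5 TPM in control and between 7.19 and 7.82 in Osr1cKO libraries. The 5 muscle stem cell markers, none of which passed, lay between 11.7 and 27.7 and between 16.7 and 16.9 TPM, the highest in the control library named above. No erythroid or adipocyte marker passed. The part of these cells in the result was not tested either. No FAP marker passed the test at 7 dpi, and their sums lay between 48280 and 54380 TPM in control and between 48810 and 51650 TPM in Osr1cKO libraries.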

How the data were processed

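RNA from sorted GFP+ FAPs was sequenced in 8 libraries, 2 in each of 4 groups, grouped by genotype and day as labelled. The deposited values are TPM per gene, which the authors calculated from normalized fragment counts. The labels and methods name STAR, DESeq2 and mm10, without versions here. The counter, annotation and strand setting are not given in the sources used here. The methods name a pair of sequencing instruments and the labels 1, so which day ran on which was not settled. Per the methods a sample at 3 dpi, or a pool at 7 dpi, was a biological replicate.

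Each table held 55385 entries. For 106 repeated symbols the further 109 entries were left out, leaving 55276. TPM steps and GENCODE exon lengths gave back fragment numbers, of which 98.7% to 98.9% of values under 50 lay within 0.02 of a whole number, and totals of 36516513 to 51096350 per library, which set the precision of low genes. Since the values were TPM and not counts, limma (3.58.1, R 4.3.3) was fitted to log2(scaled TPM + 1) after trimmed-mean scaling (30% per tail), for genes with at least 10 fragments in 2 libraries and 15 in all, or a mean TPM of 1 where no length was known, with a trended variance and Benjamini-Hochberg adjustment over all genes tested. All fold changes are on this scale, which understates changes of low genes. Genotypes were compared at each day, days within each genotype, and the interaction over all libraries. Genotype calls followed the methods of the study, with a fold change over 1.2 and an unadjusted p under 0.05 at 3 dpi or an adjusted p under 0.1 at 7 dpi. The latter was also used between days, and an adjusted p under 0.05 for the interaction.

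The 35 genes and all lists were chosen with earlier results of these data known. Members past a call rule were named with their statistics, and of each further list at most the 2 genes of smallest p. Where no gene passed the adjusted rule, the unadjusted one was used for naming. Alternatives were other scalings, pseudocounts, filters and variance models, limma-voom on the fragments, 1 fit of all libraries, a replicate block and leaving out each library. The script was tested on simulated data. Promoter windows came from RefSeq (GRCm38.p6). Python 3.11.15, pandas 2.3.3, NumPy 2.4.6 and matplotlib 3.10.9 were used.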

Additional observations from a re-analysis of the deposited data

Results flagged for a closer look

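On scaled values, both Osr1cKO libraries of 5 genes lay beyond both control libraries in opposite directions at the 2 days, as they did for 5.99% of the 15043 genes tested at both days. The log2 difference between the days in the genotype effect (7 dpi minus 3 dpi) was 1.27 for Fdft1, squalene synthase (adjusted p = 0.343), 1.33 for Msmo1, a methylsterol oxidase (adjusted p = 0.459), and 0.97 for Sc5d, a sterol desaturase (adjusted p = 0.485). In these 3 sterol genes the Osr1cKO values lay below the control values at 3 dpi, where none passed the test, and above them at 7 dpi. Acly, ATP citrate lyase, had the same order of directions with a smaller value of 0.29 (adjusted p = 0.801). For Scd1, a stearoyl-CoA desaturase, the Osr1cKO values lay above the control values at 3 dpi and below them at 7 dpi, passing at neither day, with a value of -0.92 (adjusted p = 0.706). In the deposited TPM the genotypes overlapped for Msmo1 and Acly at 3 dpi and for Scd1 at 7 dpi. The adjusted p-values are from the limma interaction term with Benjamini-Hochberg adjustment over all genes tested.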

How the results depend on the processing

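No member changed direction in any comparison where it had passed, under any alternative run. These runs refit the same libraries, and leaving 1 out can hardly reverse groups that do not overlap, so this is no independent support. At 3 dpi, 1 fit of all 8 libraries gave 1 sterol gene lower and 3 fatty-acid genes higher, and leaving out 1 library gave 0 to 1 sterol genes higher, 0 to 4 lower and 0 to 3 fatty-acid genes higher. At 7 dpi the sterol median was 0.66 without further scaling, 0.59 with a pseudocount of 0.1 and 0.59 with limma-voom, and 0.54 to 0.64 leaving out 1 library. The fit of all libraries ended the calls of Hsd17b7, Dhcr7 and Elovl6, 3 of 21, and leaving out 1 library gave 15 to 17 sterol genes at the unadjusted threshold. The fatty-acid median was 0.24 without further scaling and 0.11 in the fit of all libraries, and 0.031 to 0.12 leaving out 1. Limma-voom gave 9 sterol genes and 1 fatty-acid gene at an adjusted p under 0.1 and 1 fatty-acid gene lower at an unadjusted p under 0.05, and 5 fatty-acid genes were higher without further scaling. Leaving out 1 library gave 0 to 9 sterol genes at the adjusted threshold and 0 to 1 fatty-acid genes lower. Between days in control FAPs the sterol median was -1.41 and the fatty-acid median -0.51 without further scaling, the latter -0.41 with median-of-ratios scaling, and leaving out 1 library gave 0 to 21 sterol genes lower, 0 to 1 higher, 0 to 6 fatty-acid genes lower and 0 to 2 higher. In Osr1cKO FAPs the sterol median was -0.59 and -0.63 under these scalings and -0.57 to -0.46 leaving out 1 library, the fatty-acid median -0.68 to -0.31, and the fatty-acid genes lower 4 without a filter and 4 to 9 leaving out 1 library. For the interaction without further scaling the sterol median was 0.73, with 2 fatty-acid genes higher and 0 lower, and leaving out 1 library gave sterol medians of 0.52 to 0.72 with 10 to 17 genes, and fatty-acid medians of -0.25 to 0.10 with 0 to 2 lower. In fits that leave a group with 1 library, that library is assumed to vary like the others. The cause of these changes was not tested. The replicate numbers did not pair the libraries: deviations of same-numbered libraries correlated at -0.13 at 3 dpi and 0.064 at 7 dpi, with 2 pairs a day. With the replicate number as a block, 3 fatty-acid genes were higher at 3 dpi, 1 sterol gene passed the adjusted threshold at 7 dpi and 1 fatty-acid gene was lower there, and 14 sterol genes passed for the interaction. With 2 libraries per group the fits have few degrees of freedom. Tm7sf2, Fdps and Idi1 had the fewest fragments of the members, down to 57, 59 and 88 in a library, which limits the precision of their levels.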
